A study of Mus musculus with 20 samples.

Results

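Chemokine receptors of myeloid cells are described here through 6 genes, Ccr1, Ccr2, Cx3cr1, Cxcr4, Ccrl2 and Cmklr1, which were taken by symbol from the table of raw counts. The table lists 23329 symbols, and all 6 receptors were among the 15363 genes with enough counts to be tested. Chemokine receptors are seven-pass membrane proteins that couple to inhibitory G proteins and turn a gradient of a secreted chemokine into directed movement. In the brain, CX3CR1 marks microglia, the resident macrophages, whereas CCR2 marks the Ly6C-high monocytes that leave the blood for inflamed tissue, and the CX3CR1 and CCR2 pair is widely used to tell the lineages apart. CCR1 binds several inflammatory CC chemokines, and CXCR4 binds CXCL12 and holds cells in bone marrow and in perivascular niches. CMKLR1 is the signalling receptor for chemerin, the product of Rarres2, and CCRL2 is an atypical receptor that binds chemerin and presents it to CMKLR1 without signalling itself.

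The libraries came from C57BL/6 mice, in 6 groups. Microglia (MG) and bone marrow derived macrophages (BMDM) were sorted from 3 tumours of a genetically engineered glioma model (GEMM) and from 3 GL261 tumours, GL261 being a transplantable mouse glioma line. Microglia of normal brain (n = 3) and Ly6C-high blood monocytes (n = 5) made up the other groups. Per the labels, GEMM tumours followed the injection of DF1 cells (a chicken fibroblast line that produces the virus) carrying RCAS-PDGFB-HA and RCAS shP53 into the right frontal cortex of Flt3:Cre Rosa26:mTmG mice at week 6 of age. Tumour cells were gated as CD45+ CD11b+ Ly6C- Ly6G-, with MG taken as GFP- TdTomato+ and BMDM as GFP+ TdTomato-. A Flt3-driven Cre marks the progeny of bone marrow progenitors, so any such cell in which recombination failed would sort as MG. How the GL261 tumours were made, whether their hosts carried that reporter, how normal MG and monocytes were sorted and how old those mice were is stated nowhere in the sources used here. Titles carry a number, shared between the MG and BMDM of a tumour and used here as the library's name. If libraries of a group did not come from separate mice, the p-values cover the spread between libraries and nothing more.

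Total counts ran from 5077787 to 7801073 in monocyte libraries and from 18113450 to 36297826 in the others, which leaves the least precision for low receptors in monocytes. All levels are given as CPM, counts scaled to library size, with group values as mean ± SD. The 8 microglia markers summed to 28769 to 32633 CPM in normal MG, 13334 to 21459 in MG of GEMM and 2180 to 7929 in MG of GL261. They summed to 3079 to 6283 CPM in BMDM of GEMM, 789 to 1628 in BMDM of GL261 and 252 to 346 in blood monocytes. The MG and BMDM libraries of each model thus did not overlap on that sum. Both libraries of GL261 tumour 80769 stood apart, with classical monocyte markers at 26896 CPM in BMDM and 5495 in MG against at most 1042 and 551 in the other GL261 libraries, and Chi3l3 alone gave 22717 and 4421 of those sums. Neutrophil markers reached 9924, 20771 and 22927 CPM in monocytes 64817, 64818 and 64819 and were at 1784 and 1752 in 64820 and 64821, in which the ribosomal precursor Rn45s took 13.5% and 14.3% of counts. Xist was at 142 CPM or more in all 5 monocyte libraries and at most 2.88 CPM elsewhere, so sex and the monocyte group cannot be told apart. In sorted bulk samples, fewer cells of a type and less RNA per cell cannot be told apart.

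Of the 6 receptors, 4 lie on mouse chromosome 9 (GENCODE vM21, GRCm38, the build behind mm10). Ccr1 (chr9:123962124-123968692, minus strand) and Ccr2 (chr9:124101950-124113557, plus strand) sit in a cluster of CC receptor genes, with Ccr1l1 and Ccr3 between them. Cx3cr1 lies at chr9:119901616-120069879 and Ccrl2 at chr9:111054486-111057519, both on the minus strand. Cxcr4 (chr1:128588199-128592293) and Cmklr1 (chr5:113612354-113650426) are also on the minus strand. No annotated exon of another gene shares bases with 5 of the receptors, while 78 of the 4505 exon bases of Cx3cr1 are shared with the antisense transcript Gm33858. Whether the counting used strand is stated nowhere in the sources used here, and reads from CC receptors of similar sequence, such as Ccr1 and Ccr1l1, could be split between them.

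Bases upstream of the RefSeq start are shown for 3 receptors, because Ccr1 and Cxcr4 were both higher in BMDM than in MG and Ccrl2 had the largest difference between BMDM and monocytes. They are from RefSeq on GRCm38.p6, run 5′ to 3′ on the gene's strand and end just before the start site (1 base earlier for Ccrl2, where that base is annotated as exon), with matches to the motifs searched in capitals (GAGGAA, the core bound by PU.1, ACGTG, the hypoxia response core, GGACTTTCC, an NF-kB site, CCCCGCCC, a GC box, and CCAAT, all on both strands).
Ccr1, chr9:123968693-123968942: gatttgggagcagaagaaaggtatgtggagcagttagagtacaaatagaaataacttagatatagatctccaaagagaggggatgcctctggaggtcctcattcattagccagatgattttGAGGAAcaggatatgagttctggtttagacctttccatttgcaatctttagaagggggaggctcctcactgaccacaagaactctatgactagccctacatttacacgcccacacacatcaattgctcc
Cxcr4, chr1:128592300-128592549: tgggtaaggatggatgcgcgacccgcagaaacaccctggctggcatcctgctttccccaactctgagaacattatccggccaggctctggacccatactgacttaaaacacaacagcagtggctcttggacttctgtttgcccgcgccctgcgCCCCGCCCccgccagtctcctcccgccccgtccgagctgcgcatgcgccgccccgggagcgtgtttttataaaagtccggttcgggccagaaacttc
Ccrl2, chr9:111057520-111057768: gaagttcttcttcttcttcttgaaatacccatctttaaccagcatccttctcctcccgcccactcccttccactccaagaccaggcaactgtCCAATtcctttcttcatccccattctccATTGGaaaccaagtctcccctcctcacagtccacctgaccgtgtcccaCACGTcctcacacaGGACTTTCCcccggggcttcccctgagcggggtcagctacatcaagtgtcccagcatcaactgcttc
In the Ccr1 window the PU.1 core matched once, at bases -129 to -124 from the start, as it does in 23.3% of the 32851 mouse promoter windows of 250 bases. The Cxcr4 window held 1 GC box at -97 to -90, a match found in 16.1% of windows. In the Ccrl2 window the NF-kB site matched once, at -68 to -60, and 0.283% of windows hold that match. The Ccrl2 window also held 1 hypoxia response core, which here overlaps no other match, and 2 CCAAT boxes, against 16.6% and 33.8% of windows with any. It belongs to the first of 3 RefSeq starts listed for Ccrl2. The windows of starts 2 and 3 overlap Ccrl2 exons and are not shown. Each held 1 hypoxia response core and 0 NF-kB or CCAAT matches. Base composition differed, with 61.2% G or C and 19 CpG dinucleotides upstream of Cxcr4, 54% and 5 upstream of Ccrl2 and 43.6% and 1 upstream of Ccr1, where the median window had 52.4% and 6. A match describes the letters of the window only. Ccr2 was also higher in BMDM than in MG, but 233 bases of its window overlap Ccr2 exons, so it is not shown. The Cx3cr1 window, with 250 such bases of Cx3cr1 exons, is not shown for the same reason. The Cmklr1 window overlaps no annotated exon and was left out as well.

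**Figure D1:**
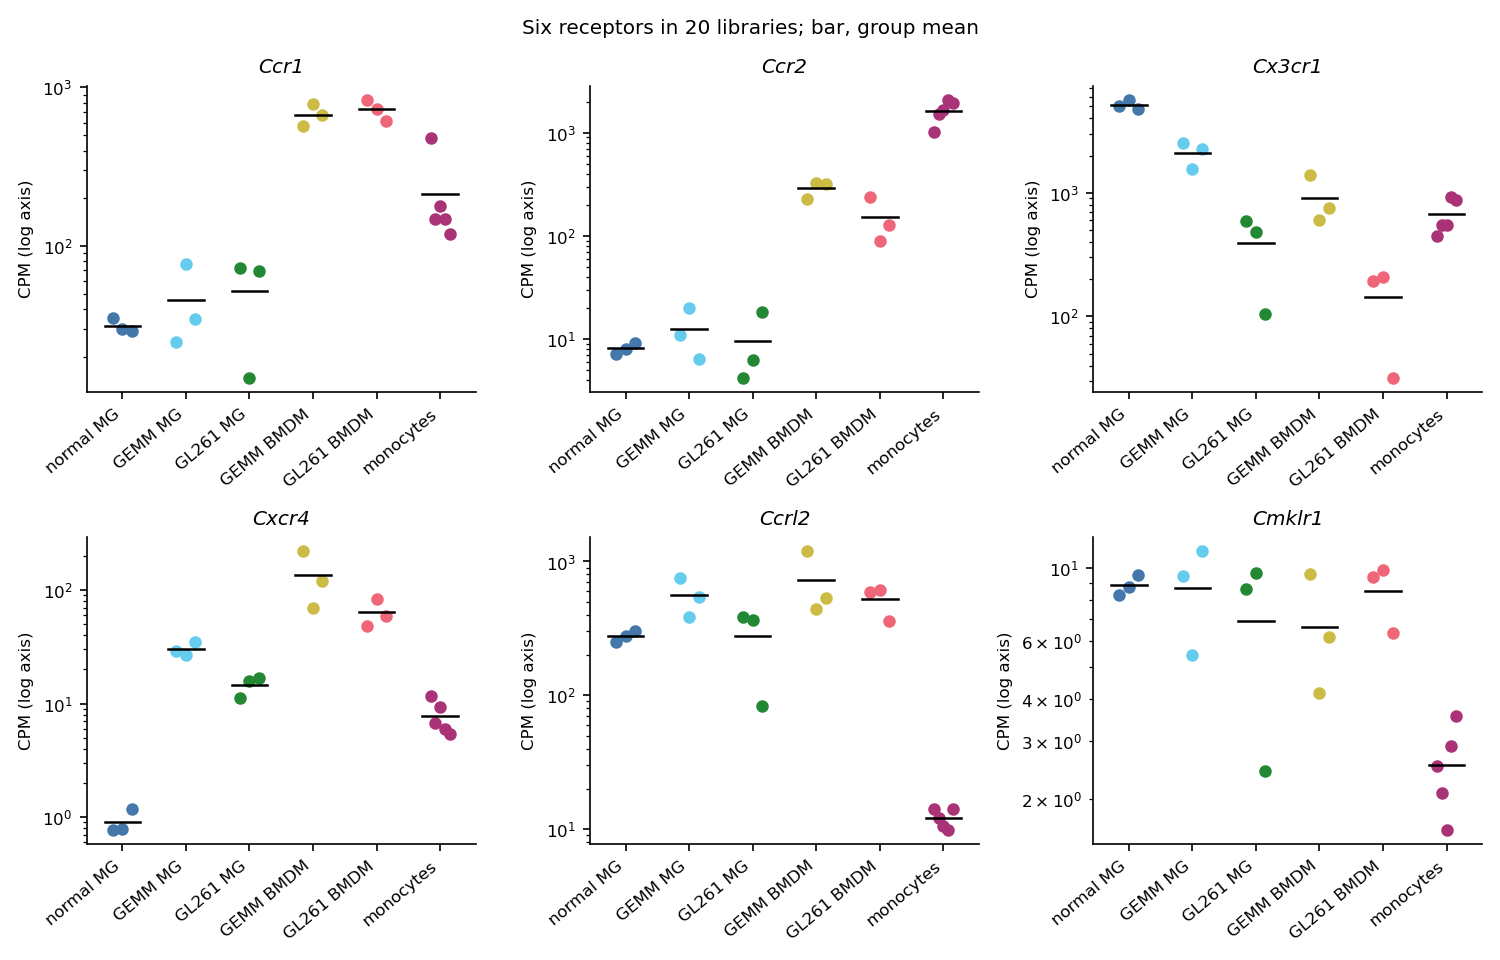
CPM of each receptor (log axis) in the 20 libraries by group, each point a library and each bar a group mean. Ccr2 was highest in monocytes (1026 to 2075 CPM), Cx3cr1 in normal MG (4729 to 5638 CPM), Ccr1 and Cxcr4 in BMDM, and Ccrl2 was at 9.90 to 14.1 CPM in monocytes against 83.8 to 1189 CPM in every other library.

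Differences were tested with edgeR's quasi-likelihood test on all 20 libraries, and a receptor was called where the Benjamini-Hochberg adjusted p over all genes was under 0.05. The pairing of MG and BMDM by tumour was left out of this fit and entered an alternative run, the replicate block. Between BMDM and MG, 3 of the 6 receptors were called higher in GEMM, where 20.8% of all genes were called in either direction, and 3 in GL261, where 17.5% were. They were Ccr1, Ccr2 and Cxcr4 in both models. In MG against normal MG, 1 receptor was called in GEMM (43.8% of all genes) and 2 in GL261 (57.8%), Cxcr4 being the higher one in both and Cx3cr1 the lower one in GL261. BMDM differed from monocytes in 5 receptors in GEMM (57.3% of all genes) and in 6 in GL261 (63%), and monocytes differed from normal MG in 6 (62.8%). In those comparisons, as in GL261 MG against normal MG, most genes were called, so a high number of receptors called is near the background. Between the models, 2 receptors were called lower in GL261 MG than in GEMM MG (34.3% of all genes) and the same 2, Cx3cr1 and Cxcr4, in GL261 BMDM than in GEMM BMDM (19.7%).

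**Figure D2:**
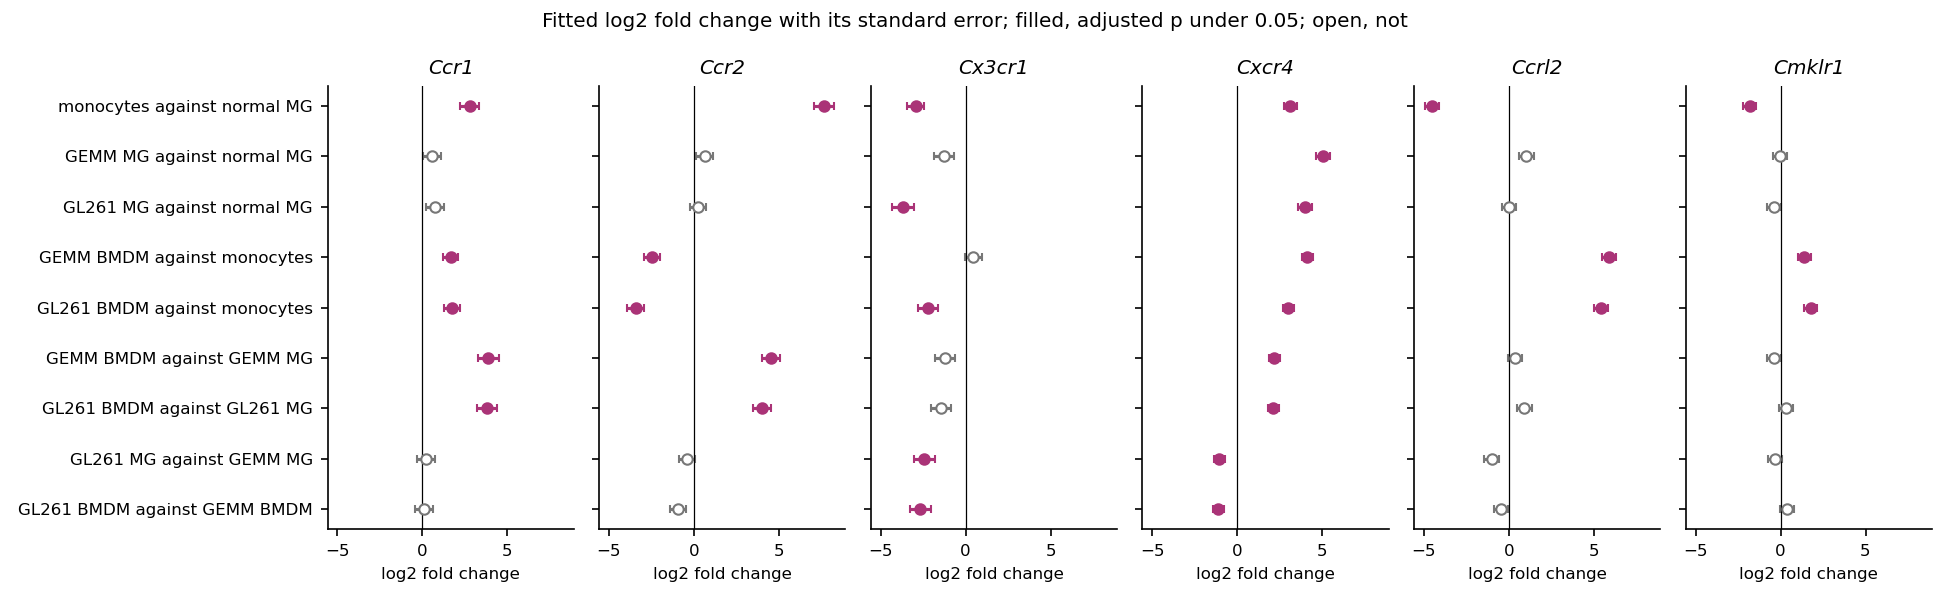
Fitted log2 fold change (x axis) of each receptor in the 9 pairwise comparisons (y axis), with SE bars, filled where the adjusted p was under 0.05 and open where it was not. Points right of the line are higher in the group named first; Ccr1, Ccr2 and Cxcr4 lay to the right of it in both BMDM against MG comparisons, and Ccrl2 lay farthest right in BMDM against monocytes (log2 5.89 and 5.42).

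Ccr2, which draws monocytes out of bone marrow and blood, was at 1026, 1504, 1653, 2075 and 1929 CPM in monocytes 64817 to 64821. In GEMM BMDM it was at 228, 328 and 321 CPM (68702, BB30101 and BB30105) and in GL261 BMDM at 239, 89.3 and 127 CPM (80766, 80767 and 80769). The means fell in steps from 1637 ± 409 CPM in monocytes through 292 ± 56.2 in GEMM BMDM and 152 ± 77.8 in GL261 BMDM, and only the BMDM groups overlapped. MG held little of it, with 6.51 to 20.3 CPM in GEMM, 4.20 to 18.3 in GL261 and 7.19 to 9.29 in normal brain, and these 3 groups overlapped. BMDM exceeded MG by log2 4.54 ± 0.54 (SE, adjusted p = 1.32e-05) in GEMM and by 3.98 ± 0.53 (adjusted p = 5.40e-05) in GL261, with the BMDM library higher in 6 of 6 tumours. Against monocytes, BMDM were lower by 2.49 ± 0.46 on the log2 scale in GEMM (adjusted p = 0.000184) and by 3.43 ± 0.49 in GL261 (adjusted p = 9.04e-06). The labels state a Ly6C- gate for tumour cells, whereas the monocytes were Ly6C-high, the cells that CCR2 marks. The gates and a change of Ccr2 within the lineage cannot be told apart here. Without monocytes 64820 and 64821 the differences of BMDM from monocytes were at log2 -2.27 and -3.22. Without both libraries of tumour 80769 the GL261 difference was at -3.30, all with an adjusted p under 0.05.

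Beside the low Ccr2 of MG, single libraries stood out. GEMM MG BB30101 had the highest Ccr2 (20.3 CPM) and Ccr1 (77.2 CPM) of its group, the lowest microglia marker sum (13334 CPM) and the highest sums of dendritic (78.3 CPM) and basophil or mast cell markers (76.1 CPM). GL261 MG 80769 had the highest Ccr2 of its group (18.3 CPM, against 4.20 and 6.28). Their part in these values was not tested. Tumour MG did not differ from normal MG past the threshold in either model, and without GL261 MG 80769 the difference in GL261 turned from log2 0.23 to -0.65 (adjusted p = 0.246).

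Ccr1, a receptor for Ccl3, Ccl5 and other inflammatory chemokines, was at 569, 785 and 669 CPM in GEMM BMDM and at 834, 728 and 616 CPM in GL261 BMDM. Those 6 libraries lay above every other one. In monocytes it was at 477, 147, 178, 148 and 118 CPM (64817 to 64821), in GEMM MG at 24.7, 77.2 and 34.5, in GL261 MG at 72.9, 14.6 and 69.2, and in normal MG at 34.9, 30.04 and 28.9. The MG groups overlapped each other, and the monocytes overlapped neither BMDM nor MG. BMDM exceeded MG by log2 3.89 ± 0.60 (adjusted p = 0.000157) in GEMM and 3.80 ± 0.59 (adjusted p = 0.000263) in GL261. Unlike Ccr2, Ccr1 was higher in BMDM than in monocytes, by log2 1.66 ± 0.46 (adjusted p = 0.00552) and 1.76 ± 0.46 (adjusted p = 0.00314).

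Monocyte library 64817 set the spread of Ccr1 in its group, whose other libraries lay between 118 and 178 CPM. That library also had the highest B cell (660 CPM against 79.2 to 259), NK cell (241 against 45.6 to 103), T cell (119 against 45.8 to 58.5) and basophil or mast cell marker sums (369 against 38.8 to 131), and the lowest Ccr2 and Cx3cr1 of its group. Their part in its Ccr1 level was not tested. Without it, the difference between BMDM and monocytes was larger, log2 2.19 in GEMM and 2.30 in GL261.

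Cx3cr1, the receptor for the membrane-bound chemokine fractalkine (Cx3cl1), was at 5009, 5638 and 4729 CPM in normal MG. GEMM MG had 2519, 1560.3 and 2265 CPM and GL261 MG 595, 485 and 104, so the 3 groups of MG did not overlap. GEMM BMDM had 1395, 602 and 748 CPM, GL261 BMDM 193, 209.6 and 31.6, and monocytes 443, 544, 551, 933 and 879. GL261 MG thus carried less Cx3cr1 than GEMM BMDM, with no overlap. The level fell by 3.70 ± 0.64 on the log2 scale from normal to GL261 MG (adjusted p = 9.05e-05), while GEMM MG was at -1.28 ± 0.58 (adjusted p = 0.0837, 95% interval -2.42 to -0.14). The GEMM difference was called with only those 2 groups in the fit (log2 -1.23 ± 0.20, adjusted p = 0.000674), without GL261 MG 80769 (-1.28, adjusted p = 0.0455) and without GL261 BMDM 80769 (-1.24, adjusted p = 0.0378). GL261 was below GEMM in both lineages, by log2 -2.42 ± 0.60 in MG (adjusted p = 0.00506) and -2.66 ± 0.61 in BMDM (adjusted p = 0.00536). Without both libraries of tumour 80769 these GL261 differences were at log2 -3.25 from normal MG, -1.97 from GEMM MG and -2.19 from GEMM BMDM, each still called. With only the BMDM groups in the fit the difference between models in BMDM was at log2 -2.64 ± 0.71 and the call was lost (adjusted p = 0.0550). GL261 BMDM also fell by 2.21 ± 0.57 against monocytes (adjusted p = 0.00251), whereas GEMM BMDM overlapped them (log2 0.45 ± 0.51, adjusted p = 0.466).

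Between lineages, Cx3cr1 did not pass the test in group means, at log2 -1.21 ± 0.58 in GEMM (adjusted p = 0.157) and -1.45 ± 0.59 in GL261 (adjusted p = 0.0962). In each of the 6 tumours, however, the BMDM library was below the MG library of the same number, at 0.304 to 0.554 times its level. With the tumour number as a replicate block the difference was called, at log2 -1.27 ± 0.18 in GEMM (adjusted p = 0.00259) and -1.52 ± 0.18 in GL261 (adjusted p = 0.00182). DESeq2 called it in GL261 (adjusted p = 0.0378), and so did the fit without GL261 MG 80769 (log2 -1.90, adjusted p = 0.0248) or without both libraries of that tumour (-1.42, adjusted p = 0.0167). With only the GEMM MG and BMDM libraries in the fit it was called as well (log2 -1.22, adjusted p = 0.0380). The microglia marker sum went down in the same order in MG, from 30178 ± 2133 CPM in normal brain to 17873 ± 4146 in GEMM and 5517 ± 2984 in GL261, and its part in the Cx3cr1 levels was not tested.

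**Figure D3:**
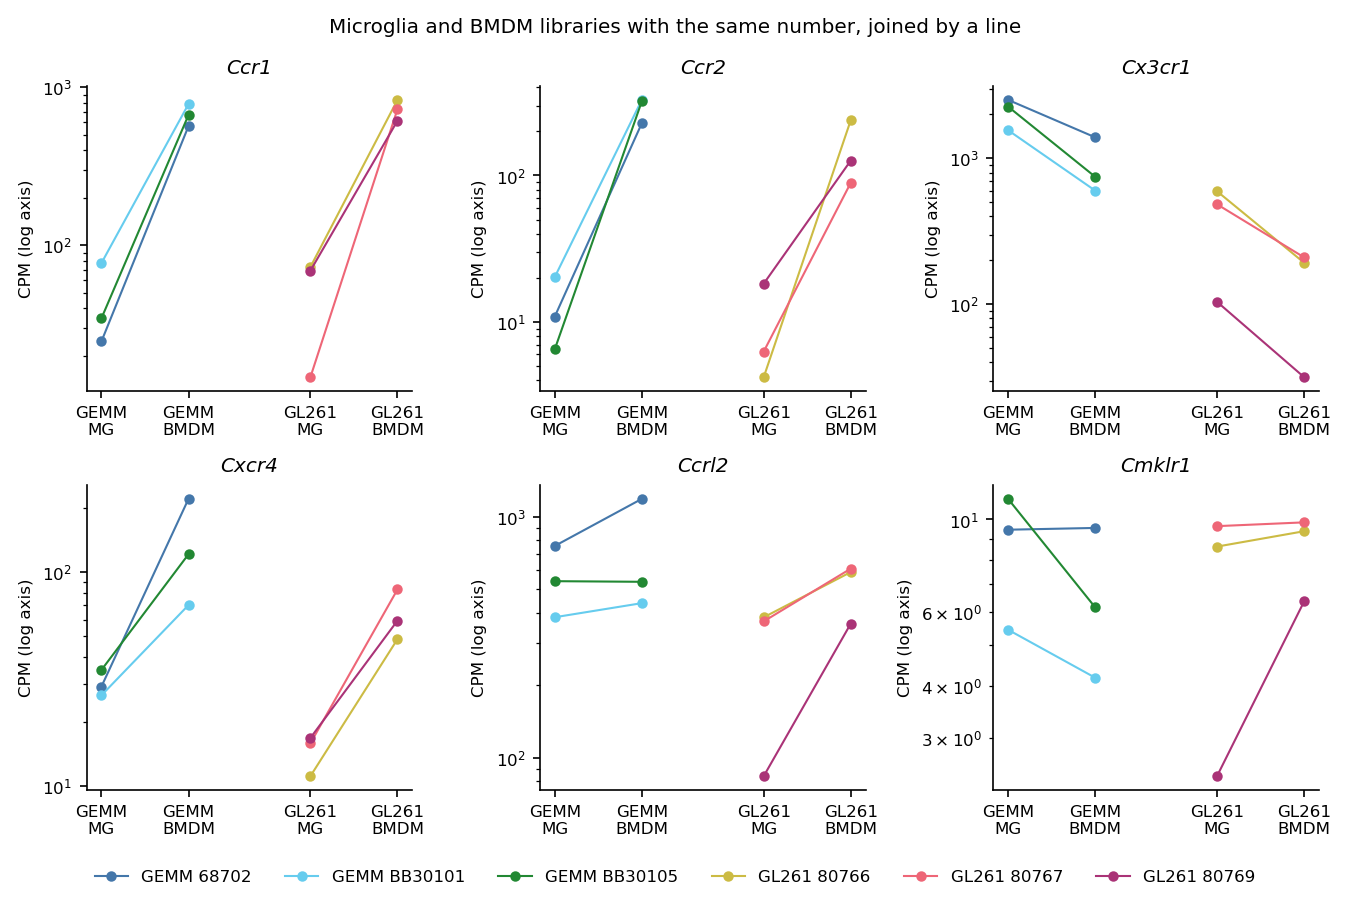
CPM (log axis) of each receptor in the MG and BMDM libraries of 1 tumour, joined by a line and coloured by tumour. Ccr1, Ccr2 and Cxcr4 rise and Cx3cr1 falls along all 6 lines, and tumour 80769 starts lowest for Cx3cr1, Ccrl2 and Cmklr1 (104, 83.8 and 2.43 CPM in MG).

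The counts of Cx3cr1 per count of Ccr2 put the groups on 1 scale that does not depend on library size. This scale is not corrected for length, with 4505 annotated exon bases in Cx3cr1 and 6760 in Ccr2. Equal counts are therefore not equal levels per kilobase. Normal MG had 509 to 697 Cx3cr1 counts per Ccr2 count, GEMM MG 77.05 to 348 and GL261 MG 5.69 to 142. BMDM had 1.83 to 6.13 in GEMM and 0.250 to 2.35 in GL261, and monocytes 0.333 to 0.456. MG and BMDM of a model did not overlap on it, but GL261 MG 80769, at 5.69, lay below GEMM BMDM 68702, at 6.13. GL261 BMDM 80769, at 0.250, was the lowest of the 20 libraries.

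**Figure D4:**
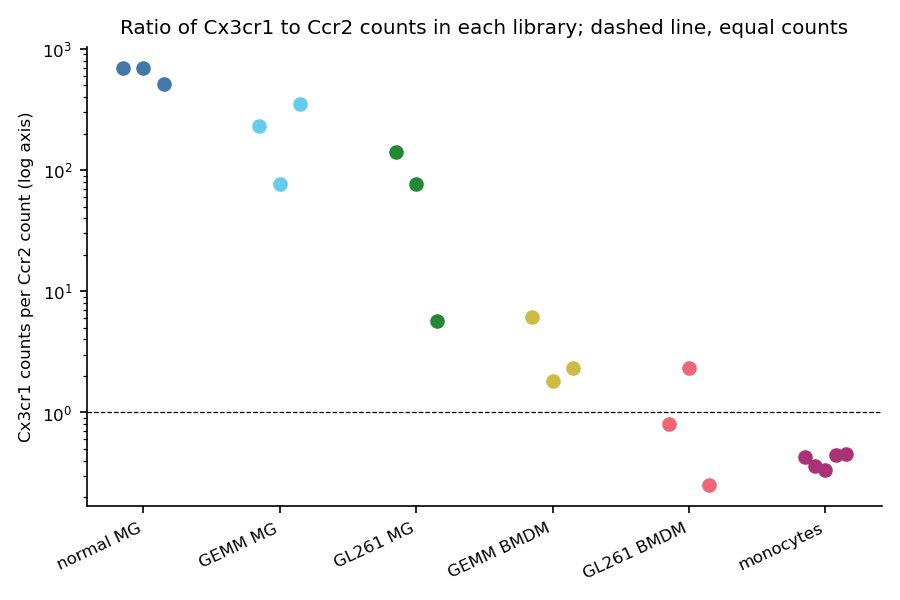
Cx3cr1 counts per Ccr2 count (log axis) in each library by group, not corrected for gene length. The dashed line marks equal counts. All 9 MG libraries lie above 5, all 5 monocyte libraries below 1, and the 6 BMDM libraries from 0.250 to 6.13.

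Cxcr4, the receptor for CXCL12, was nearly absent from normal MG, with 20 to 34 counts per library (0.773, 0.783 and 1.17 CPM). In MG of tumours it was at 29.2, 26.6 and 34.9 CPM in GEMM and 11.1, 15.9 and 16.8 in GL261. In BMDM it was at 219, 70.1 and 121 CPM in GEMM and 48.6, 82.9 and 59.3 in GL261, and in monocytes at 11.6, 6.70, 9.27, 5.98 and 5.44. Normal MG lay below all other libraries, and the BMDM of both models above all others. Cxcr4 rose in MG from normal brain to tumour by log2 5.05 ± 0.41 in GEMM (adjusted p = 7.88e-08) and 4.00 ± 0.40 in GL261 (adjusted p = 2.70e-07). It was also higher in BMDM than in monocytes, by log2 4.11 ± 0.31 (adjusted p = 7.44e-09) and 3.01 ± 0.31 (adjusted p = 1.95e-07), so it was the 1 receptor called higher in the tumour in both lineages and both models. Within tumours, BMDM exceeded MG by log2 2.18 ± 0.34 (adjusted p = 0.000184) and 2.12 ± 0.34 (adjusted p = 0.00034), in 6 of 6 pairs.

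Markers of oligodendrocyte precursors or glioma cells were, like Cxcr4, higher in tumour MG than in normal MG. The 6 genes summed to 1.55 to 4.01 CPM in normal MG, 128 to 186 in GEMM MG and 363 to 782 in GL261 MG. The BMDM sums were 14.4 to 84.8 CPM for GEMM and 147 to 338 for GL261, and those of monocytes 0.149 to 1.44. Of the defining genes, Olig2 averaged 9.11 ± 1.44 CPM in GEMM MG and 81.8 ± 19.6 in GL261 MG against 0.112 ± 0.118 in normal MG. The labels state a CD45+ CD11b+ gate, and how many such cells passed it was not tested. The sum was lower in BMDM than in MG in 6 of 6 tumours and higher in GL261 than in GEMM within each lineage. Cxcr4 was higher in BMDM than in MG and had a higher mean in GEMM than in GL261. The part of these cells in the Cxcr4 levels was not tested.

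Between models Cxcr4 was lower in GL261, by log2 -1.05 ± 0.33 in MG (adjusted p = 0.0214) and -1.11 ± 0.33 in BMDM (adjusted p = 0.0241). Neither call was kept with every library left out in turn, although the estimates kept their sign. They ran from log2 -1.23 to -0.92 in MG and from -1.45 to -0.58 in BMDM. The MG call was lost without GL261 MG 80766 (log2 -0.92, adjusted p = 0.0681). The BMDM call was lost without GEMM BMDM 68702 (log2 -0.58, adjusted p = 0.212), without GL261 BMDM 80766 (-0.93, adjusted p = 0.0983) or 80769 (-1.10, adjusted p = 0.0605), and with only these 2 groups in the fit (-1.08, adjusted p = 0.135). GEMM BMDM 68702 had the highest Cxcr4 (219 CPM) and Ccrl2 (1189 CPM) of all libraries and a neutrophil marker sum of 2211 CPM against 234 and 189 in the other GEMM BMDM libraries, with Camp and Elane at 0 in all 3. Retnlg alone gave 1748 CPM of that sum. The labels state a Ly6G- gate, and whether neutrophils passed it was not tested. The part of those cells in its Cxcr4 and Ccrl2 levels was not tested.

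Ccrl2, the chemerin-presenting receptor, was at 14.1, 12.2, 10.6, 9.90 and 14.07 CPM in monocytes. In every tissue library it was higher, at 251, 279.6 and 304 CPM in normal MG, 758, 383 and 541 in GEMM MG, 383, 368 and 83.8 in GL261 MG, 1189, 439 and 538 in GEMM BMDM and 590.5, 610.1 and 361 in GL261 BMDM. Those 5 groups formed a chain in which each group overlapped the next. BMDM exceeded monocytes by log2 5.89 ± 0.43 in GEMM (adjusted p = 4.86e-09) and 5.42 ± 0.43 in GL261 (adjusted p = 9.08e-09), and monocytes were below normal MG by log2 -4.51 ± 0.41 (adjusted p = 3.01e-08). The dissociation stress list (11 of 11 markers detected) summed to 2806 to 4941 CPM in monocytes, 6698 to 11608 in BMDM, 4560.3 to 12073 in tumour MG and 25323 to 31192 in normal MG, and its part in the Ccrl2 levels was not tested.

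The difference between BMDM and MG in Ccrl2 was not called in the main fit, at log2 0.36 ± 0.43 in GEMM (adjusted p = 0.599, 95% interval -0.48 to 1.21) and 0.90 ± 0.43 in GL261 (adjusted p = 0.160, 0.05 to 1.75). In GL261 the BMDM library was the higher one in 3 of 3 tumours, and with the replicate block the difference was called (log2 1.14 ± 0.30, adjusted p = 0.0334). Without GEMM BMDM 68702 the GEMM difference turned to -0.28 (adjusted p = 0.711). GEMM MG were above normal MG without passing the test (log2 1.01 ± 0.43, adjusted p = 0.0675). That difference was called with DESeq2 (adjusted p = 0.0314), with only those 2 groups in the fit (adjusted p = 0.00301), without GL261 MG 80769 (adjusted p = 0.0134) and without GEMM BMDM 68702 (adjusted p = 0.0435).

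Cmklr1, the signalling receptor for chemerin, had low counts, with 12 to 20 per library in monocytes and 65 to 277 elsewhere. It was at 8.30, 8.73 and 9.50 CPM in normal MG, 9.45, 5.45 and 11.2 in GEMM MG, 8.61, 9.64 and 2.43 in GL261 MG, 9.55, 4.18 and 6.17 in GEMM BMDM and 9.37, 9.84 and 6.37 in GL261 BMDM, and these groups overlapped. Monocytes were at 2.51, 2.08, 1.61, 2.89 and 3.57 CPM, and the single tissue library within their range was GL261 MG 80769. BMDM exceeded monocytes by log2 1.40 ± 0.39 in GEMM (adjusted p = 0.00555) and 1.77 ± 0.39 in GL261 (adjusted p = 0.000825), and monocytes were below normal MG by log2 -1.82 ± 0.39 (adjusted p = 0.000571). The GEMM call was lost without GEMM BMDM 68702 (log2 1.02, adjusted p = 0.0575). Neither MG against normal MG nor BMDM against MG was called for Cmklr1 in any alternative run.

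Whether the lineages differed to another extent in GL261 than in GEMM was tested as an interaction. By edgeR 0 of 6 receptors were called, where 1.63% of all genes were, with 0 at an unadjusted p under 0.05 and 0 by DESeq2. The estimates ran from log2 -0.56 ± 0.66 for Ccr2 (95% interval -1.86 to 0.74) to 0.70 ± 0.59 for Cmklr1 (-0.46 to 1.85).

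A further interaction set the difference between BMDM and monocytes against that between tumour MG and normal MG. In GEMM, 2 receptors were called (38.9% of all genes) and in GL261 3 (44.2%). Ccr2 was lower in that contrast, by log2 -3.11 ± 0.65 in GEMM (adjusted p = 0.00104) and -3.66 ± 0.66 in GL261 (adjusted p = 0.000226). It was lower in the BMDM, gated Ly6C-, than in the Ly6C-high monocytes, and was at 4.20 to 20.3 CPM in all MG of tumours. Ccrl2 was higher, by log2 4.87 ± 0.61 (adjusted p = 6.20e-06) and 5.41 ± 0.61 (adjusted p = 1.55e-06). Cmklr1 was higher in GL261 (log2 2.13 ± 0.58, adjusted p = 0.00619), with 1.43 ± 0.58 in GEMM (adjusted p = 0.0574). For Cxcr4, which rose in both lineages, the contrast was at log2 -0.93 ± 0.49 (adjusted p = 0.142) and -0.99 ± 0.49 (adjusted p = 0.112). The GEMM count was 4 with only the 4 groups in the fit or without GL261 MG 80769, with Cx3cr1 (log2 1.69 and 1.75) and Cmklr1 (log2 1.40 and 1.45) called as well.

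Apart from the counts of Cx3cr1 per count of Ccr2, levels of different receptors were compared only per kilobase of annotated exon. On that scale normal MG held 1138 ± 103 CPM per kilobase of Cx3cr1, 107 ± 10.2 of Ccrl2, 11.04 ± 1.13 of Ccr1, 2.59 ± 0.18 of Cmklr1, 1.21 ± 0.16 of Ccr2 and 0.50 ± 0.12 of Cxcr4. In monocytes the leading receptors were Ccr2 (242 ± 60.5 CPM per kilobase) and Cx3cr1 (149 ± 48.9), with Ccr1 at 75.4 ± 52.5. GEMM BMDM had Ccrl2 (278 ± 157), Ccr1 (238 ± 38.2) and Cx3cr1 (203 ± 93.7) at like levels, within their spread. In GL261 BMDM, Ccr1 (256 ± 38.6) and Ccrl2 (200.3 ± 53.4) led, with Cx3cr1 at 32.1 ± 21.8 and Ccr2 at 22.4 ± 11.5.

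The other chemokine receptors numbered 19, of which 18 were tested. In GEMM BMDM against MG 7 were higher and 1 lower, and in GL261 3 were higher and 1 lower, with medians of log2 1.90 and 1.12 against 0.01 and -0.08 over all genes. Of all genes, 20.8% and 17.5% were called in either direction, and the GL261 count is near that share. Cxcr7 (now Ackr3), a scavenger that takes up CXCL12 without classical G protein signalling, was the lower one in both, by log2 -3.05 ± 0.53 (adjusted p = 0.00049) and -1.62 ± 0.50 (adjusted p = 0.0314). Like Cxcr4 it was higher in tumour MG than in normal MG (log2 3.13 ± 0.53 and 3.58 ± 0.54), at 20.6 ± 7.71 CPM in GEMM MG, 28.2 ± 14.3 in GL261 MG and 2.35 ± 0.40 in normal MG. In BMDM it was at 2.49 ± 1.44 CPM in GEMM and 9.20 ± 5.64 in GL261, and in monocytes at 0.456 ± 0.357. In both models Cxcr4 was thus higher and Cxcr7 lower in BMDM than in MG. The oligodendrocyte precursor or glioma markers given with Cxcr4 moved with Cxcr7 in both comparisons, averaging 158 ± 29.1 CPM in GEMM MG and 545 ± 215 in GL261 MG against 2.69 ± 1.24 in normal MG. Their averages in BMDM were 54.6 ± 36.2 CPM for GEMM and 254 ± 97.2 for GL261. Their part in the Cxcr7 levels was not tested.

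Ccr3, between Ccr1 and Ccr2, reached 151 CPM in 1 GEMM BMDM library and at most 5.42 CPM in every library of the other groups. Ccr7, which guides dendritic cells to lymph nodes, averaged 368 ± 203 CPM in BMDM of GEMM, 159 ± 172 in BMDM of GL261 and 17.3 ± 12.04 in monocytes, and Xcr1, a receptor of cross-presenting dendritic cells, at 18.3 ± 9.21, 4.02 ± 0.40 and 5.83 ± 1.47. Beside them, the 7 dendritic cell markers summed to 552 to 1321 CPM in BMDM of GEMM, 54.9 to 260.1 in those of GL261 and 171 to 259 in monocytes, and their part in the Ccr7 and Xcr1 levels was not tested. Cxcr2, the neutrophil receptor, was at 111 to 510 CPM in monocytes and at most 19.2 CPM elsewhere, beside the neutrophil markers given above.

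The ligands of the 6 receptors were read out as 13 genes, all tested. In MG against normal MG 7 were higher in GEMM and 6 in GL261, with medians of log2 1.55 and 1.22 against -0.02 and 0.01 over all genes. With 43.8% and 57.8% of all genes called in either direction, these counts are near the background. Mif, a cytokine that also engages CXCR4, rose by log2 3.15 ± 0.25 and 3.29 ± 0.25 (adjusted p = 5.68e-08 and 1.60e-08), and Ccl5, a ligand of CCR1, from 0.82 ± 0.03 CPM in normal MG to 85.1 ± 45.3 and 104 ± 10.3 CPM. The CCR2 ligand Ccl7 rose by log2 2.29 ± 0.37 and 3.08 ± 0.38. Between the lineages, 4 ligands were lower in BMDM than in MG in GEMM, where 20.8% of all genes were called in either direction. The 4 ligands were the CCR2 ligands Ccl12 (log2 -2.14 ± 0.47) and Ccl2 (-1.85 ± 0.49) and Ccl4 (-2.13 ± 0.51) and Ccl3 (-1.73 ± 0.49), the latter a ligand of CCR1. In GL261, where 17.5% of all genes were called, Ccl4 (-2.04 ± 0.51) and Ccl3 (-1.51 ± 0.49) were lower and Ccl7 higher (1.23 ± 0.35). Ccl8 reached 17596 CPM in 1 GL261 BMDM library against 364 CPM in the lowest.

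The chemerin gene Rarres2 was at most 1.37 CPM in any library, Cxcl12 at most 5.07 CPM and Cx3cl1 at most 13.8 CPM, and monocytes had no count of Rarres2 or Cx3cl1. Mif, in contrast, was at 272 ± 53.5 CPM in GEMM MG and 300.4 ± 88.0 in GL261 MG, and at 16.0 ± 2.61 in monocytes. The CCR2 ligand Ccl12 was at 837 ± 288 CPM in GEMM MG and 0.796 ± 0.454 in monocytes, and Ccl4 at 2832 ± 803 and 7.75 ± 1.59.

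**Figure D5:**
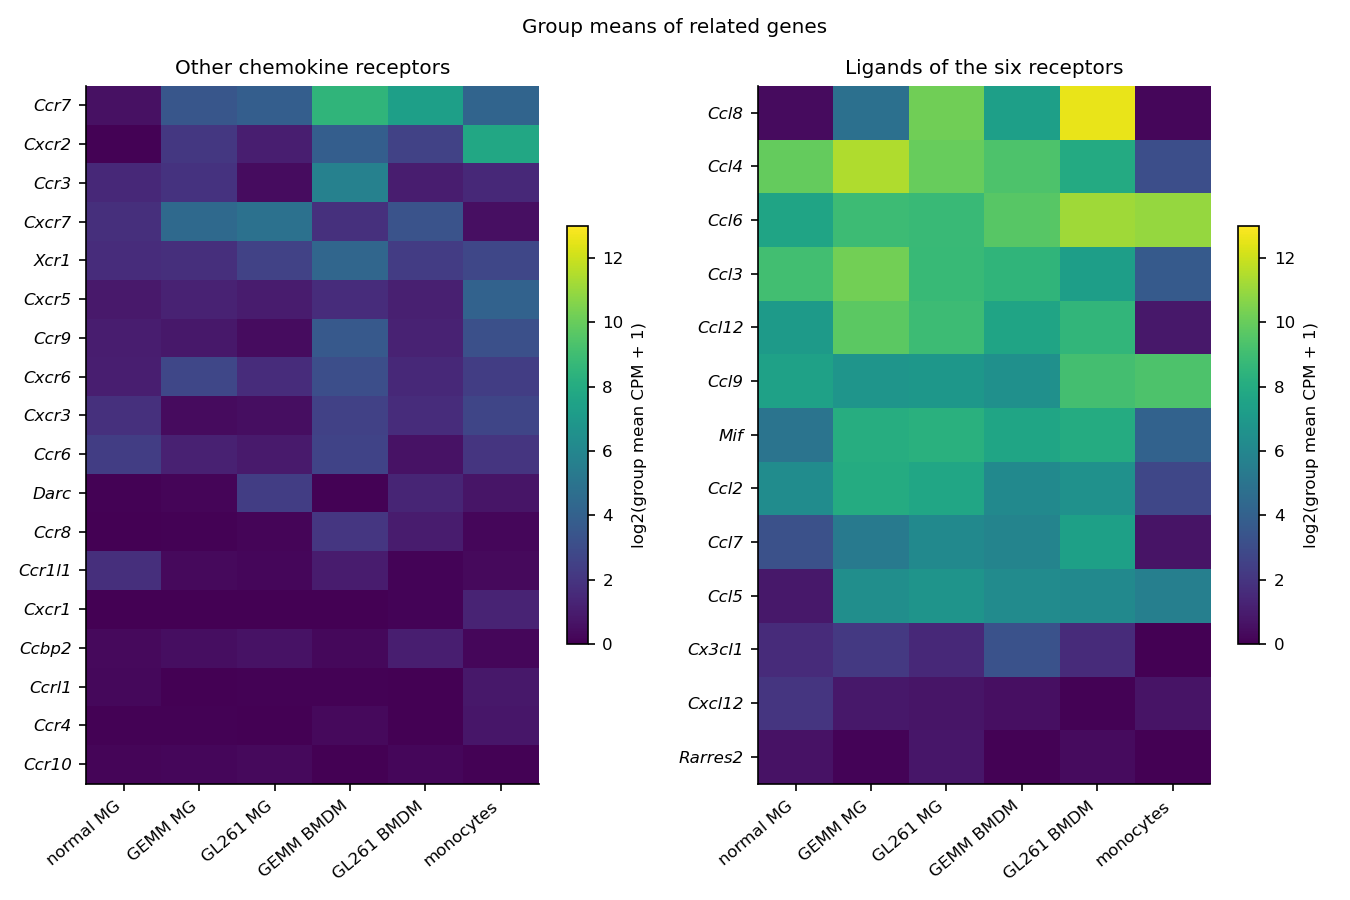
Group mean levels, as log2 of mean CPM plus 1, of 18 other chemokine receptors (left) and the 13 ligands of the 6 receptors (right), a column per group and a row per gene. Ccr7 is highest in GEMM BMDM (368 CPM), and Cxcl12 and Rarres2 are dark in every column.

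Of 10 other chemoattractant receptors 9 were tested. Against monocytes, the complement receptor C3ar1 was higher in BMDM by log2 5.78 ± 0.23 in both models (adjusted p = 2.30e-12 and 2.91e-12), as Ccrl2 was. Between BMDM and MG 3 were higher in each model, where 20.8% of all genes were called in GEMM and 17.5% in GL261. They were Ltb4r1, a leukotriene receptor (log2 4.52 ± 0.74 and 3.37 ± 0.69), the formyl peptide receptor Fpr2 (3.01 ± 0.85 and 3.26 ± 0.77) and the oxysterol receptor Gpr183 (0.73 ± 0.21 and 1.23 ± 0.21). Gpr183 was lower in MG of tumours than in normal MG (-1.45 ± 0.21 and -3.25 ± 0.23), in the same order of groups as Cx3cr1.

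The 26 genes that carry or end the signal were all tested. GL261 MG had 16 lower and 2 higher than normal MG, and GEMM MG 9 lower and 4 higher, with medians of log2 -0.81 and -0.28 against 0.01 and -0.02 over all genes. The 13 called in GEMM are near the background of 43.8% of all genes, and the 18 in GL261 stand beside 57.8%. Among the lower ones in GL261 MG were Rgs2 (-2.41 ± 0.25) and Rgs10 (-2.23 ± 0.27), which shorten G protein signals, and Pik3r5 (-1.99 ± 0.25), a subunit of the kinase PI3K gamma. Rgs1, a G protein brake of lymphoid and myeloid cells, was at 7.77 ± 6.11 CPM in monocytes and averaged 1935 ± 647 in BMDM of GEMM, 1281 ± 105 in those of GL261 and 1053 ± 78.3 in normal MG. Against it ran Grk5, a kinase that switches receptors off, at 56.4 ± 15.2 CPM in monocytes and at most 5.95 CPM elsewhere, and Adrbk2 (Grk3), at 311 ± 22.5 CPM in monocytes against 46.1 ± 9.71 and 55.8 ± 8.29 in GEMM and GL261 BMDM. In BMDM against monocytes, 12 of these genes were lower and 6 higher in GEMM, and 14 lower and 4 higher in GL261, where 57.3% and 63% of all genes were called, so these counts are near the background.

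Genes most like each receptor were found by Pearson correlation of log2 CPM over the 20 libraries, as a description, since libraries of a group share their cell type and their handling. Ccr2 was followed most closely by Mob3b (r = 0.99), St3gal4 and Cyp4f16 (both 0.98), and Ccrl2 by Fam46c, Spint1 and Cd14 (all 0.98), the last being the co-receptor for bacterial lipopolysaccharide. Cxcr4 was most like Gpr65 (r = 0.97), an acid-sensing receptor, Nceh1 (0.96) and Il1rn (0.95), the interleukin 1 receptor antagonist. Cx3cr1 was most like Mtus1, Hltf (both 0.96) and Hpgd (0.94), a prostaglandin-degrading enzyme, Ccr1 like Abcb1a, Cyth1 (both 0.95) and Rasgrp1 (0.93), and Cmklr1 like Fcgr1 (0.93), a high-affinity Fc receptor, Gpr116 (0.92) and Myo7a (0.91). Among the receptors themselves, the chemerin receptors Ccrl2 and Cmklr1 were the most alike (r = 0.87, Spearman 0.75), both being low in monocytes, and Ccr2 and Cmklr1 the least (r = -0.70, Spearman -0.67).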

How the data were processed

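Polyadenylated RNA was sequenced after Smart-Seq amplification, and the authors deposited raw counts per gene symbol, 1 column for each of the 20 libraries. The submitters' processing notes name STAR 2.5.0e, HTSeq, CASAVA 1.8, mm10 and DESeq2, with no role or order. Which annotation was counted, and whether by strand, is stated nowhere in the sources used here. The table had 0 columns without a sample. Groups were taken from the sample labels.

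Counts were tested in R 4.3.3 with edgeR 4.0.16 (TMM scaling, filterByExpr with a minimum count of 10 and a minimum total of 15, robust quasi-likelihood fit, 1 model over 6 groups), for 9 pairwise contrasts and 3 interactions. P-values were adjusted by the Benjamini-Hochberg method over the 15363 genes tested, with 0.05 as threshold. The SE was taken from the fold change and the F statistic, and 95% intervals as 1.96 SE. CPM are counts scaled to TMM-adjusted library size, with a prior count of 2 for the log2 values used in correlations. On simulated counts for GEMM BMDM against GEMM MG (14917 genes, 200 changed), 39% of 2-fold and 64% of 4-fold changes were recovered. Of the 109 genes called there, 6 were false. A larger share of genes, 20.8%, was called in the real comparison, so the simulation does not give the share of real changes found. Alternatives were DESeq2 1.42.0, RLE size factors, no filter, only the groups compared, no Rn45s, a replicate block and leaving out each library. After the data were seen, fits without both libraries of tumour 80769 and without monocytes 64820 and 64821 were added.

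MG and BMDM of a tumour share a number in their titles, and the series describes matched cells. Deviations of same-numbered libraries correlated at 0.196 to 0.316 in GEMM and 0.219 to 0.393 in GL261, against at most -0.01 and 0.08 between other numbers. The shared numbers were treated as pairs in the comparisons within tumours and in the replicate block only. The main tests of BMDM against MG and of the interactions did not use the pairing. No libraries of a group agreed within sampling noise, by chi-square per degree of freedom. Monocytes 64818 and 64819 (3.08) and monocytes 64820 and 64821 (3.97) came closest, however. Every other pair within a group was at 18.2 or more, and every other monocyte pair at 32.6 or more. Whether the libraries of these close pairs came from separate mice was not tested. If not, comparisons with monocytes rest on fewer independent samples than libraries.

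The receptors and the gene lists were chosen with earlier results of these data known. Named genes are the 6 receptors, up to 4 called genes of smallest p per list and comparison, the 3 genes most correlated with each receptor, and neighbouring receptor genes. List genes whose levels are given without a call, such as Rarres2, Cxcl12, Cx3cl1 and Ccl8, were picked as ligands after their values were seen. The counts of the list of other chemokine receptors cover all its members, of which 1 is not reported here by name. Figures were drawn with matplotlib 3.10.9.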

Additional observations from a re-analysis of the deposited data

Results flagged for a closer look

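Monocyte library 64817 stood far from the other 4 of its group in Ccr1, at 477 CPM against 118 to 178 CPM. The threshold that flagged this gap, set relative to the range of a group, is passed by chance in about 1 of 20 groups. The markers of other blood cells that were also highest in it are given with the Ccr1 levels.

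The difference between BMDM and monocytes was not the same as that between tumour MG and normal MG for 3 receptors, by the interaction term of the edgeR fit. For Ccr2 the interaction was at log2 -3.11 in GEMM and -3.66 in GL261, and for Ccrl2 at 4.87 and 5.41. For Cmklr1 it was called in GL261, at 2.13. These interactions hold the monocyte libraries, which differ from all others in sex and depth and from the tumour cells in the stated Ly6C gate. The part of each was not tested.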

How the results depend on the processing

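Of the 35 calls of receptors over the 12 comparisons, 31 were kept under every alternative run. The other 4 were Cmklr1 in GEMM BMDM against monocytes, Cxcr4 between models in both lineages and Cx3cr1 between models in BMDM, with their values in the report. For single receptors, 1782 alternative values kept direction and call, 8 lost the call, 30 gained it and 70 changed sign, all 70 of differences that were not called. Where values turned, the cause was not tested.

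The number of receptors called moved over 1.5 times in 5 comparisons. With the replicate block it was 5 in GL261 BMDM against MG, where Cx3cr1 and Ccrl2 were gained. In GEMM MG against normal MG it was 3 with only the groups compared, 2 with DESeq2 and 1 to 3 with a library left out. Between models it was 1 to 3 in MG and 1 to 2 in BMDM with a library left out, 0 in BMDM with only the groups compared and 1 without both libraries of tumour 80769. The GEMM interaction with monocytes gave 4 with only the groups compared and 2 to 4 with a library left out. The replicate block also gained Cx3cr1 in GEMM BMDM against MG, which took that count from 3 to 4, and changed no other call of a receptor. Over all genes, those called in GL261 BMDM against MG fell from 2692 to 833 with only the groups compared, and from 3027 to 1765 in GL261 against GEMM BMDM. The interaction of lineage and model went from 250 genes to 21 with only the groups compared, 156 without the filter and 803 with DESeq2, and to 102 to 459 with a library left out. Leaving out a library also took GEMM BMDM against MG from 3194 to 2001 genes (BB30101 BMDM) and GL261 BMDM against MG to 1767 (80767 MG) and 1695 (80766 BMDM).

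Signs turned as follows, on the log2 scale. For Cmklr1 in GEMM MG against normal MG the value was 0.029 with RLE factors and with DESeq2, 0.014 without the filter, 0.020 without Rn45s and 0.019 with only the groups compared, and from -0.23 to 0.24 with a library left out. For Ccrl2 in GL261 MG against normal MG it was -0.052 without Rn45s and from -0.27 to 0.44 with a library left out. Without both libraries of tumour 80769, GL261 MG against normal MG gave -0.64 for Ccr2 and 0.047 for Cmklr1, and GL261 against GEMM MG gave -0.058 for Ccr1 and 0.071 for Cmklr1. The interaction of lineage and model gave 0.031 for Ccr1 and 0.064 for Cxcr4 without Rn45s, 0.0023 and 0.076 with the replicate block, and 0.27 for Ccr1, 0.44 for Ccr2 and 0.10 for Cxcr4 without both libraries of 80769.

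With a library left out, the interaction ran from -0.60 to 0.33 for Ccr1, -0.96 to 0.32 for Ccr2, -0.69 to 0.30 for Cx3cr1 and -0.38 to 0.57 for Cxcr4. BMDM against MG ran from -0.28 to 0.58 for Ccrl2 in GEMM and from -0.10 to 0.63 for Cmklr1 in GL261. Against normal MG, Ccr1 ran from -0.061 to 0.87 in GEMM MG, and Ccr2 from -0.65 to 0.57 and Cmklr1 from -0.68 to 0.046 in GL261 MG. Between models, MG ran from -0.20 to 0.73 for Ccr1, -1.27 to 0.039 for Ccr2 and -0.67 to 0.070 for Cmklr1, and BMDM from -0.76 to 0.11 for Ccrl2. Cx3cr1 in GEMM BMDM against monocytes ran from -0.021 to 0.73. Depth limits Cmklr1 in monocytes (12 to 20 counts) and Cxcr4 in normal MG (20 to 34 counts) most.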
